A study of Mus musculus with 6 samples.

Results

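The 10 genes described here are nuclear and encode factors that copy, package or transcribe the mitochondrial genome or act on its RNA. They are Tfam, Polrmt, Tfb2m, Tfb1m, Polg, Polg2, Twnk, Ssbp1, Mgme1 and Lrpprc. They were chosen by name and make up 10 of the 26969 genes in the deposited table, and all 10 passed the filter on low counts that left 17645 genes. Poly(A)-selected RNA was sequenced from 6 libraries of wild-type (wt) mouse chondrocytes, the cells that build cartilage matrix, in 2 groups of 3. The title of the series names osteocytes as the source of the transplanted mitochondria. The labels give no strain, age, number of animals, culture conditions or amount of mitochondria, and their extraction protocol speaks of RNA of an adipose type. The labels contradict each other: the group described as mAC_Mito carries the treatment entry vehicle, and the group described as mAC carries the treatment entry mitochondria. The groups are called mAC and mAC_Mito after the description, differences are taken as mAC_Mito minus mAC, and none is read as an effect of the transplant.

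Mitochondria keep a small circular genome that encodes subunits of the respiratory chain, and the proteins that copy and transcribe it are encoded in the nucleus. TFAM coats the DNA into nucleoids and, together with the RNA polymerase POLRMT and TFB2M, starts transcription. The DNA polymerase POLG works with its accessory subunit POLG2, the helicase Twinkle (Twnk) and the single-strand binding protein SSBP1 at the replication fork. LRPPRC, in a complex with SLIRP, protects most mitochondrial mRNAs from decay. Many of these genes are known targets of NRF1 and of GABP, an ETS-family factor, both of which link mitochondrial content to the nucleus.

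Libraries held between 59116068 and 68378213 counts, of which the 10 factors together took 0.0232% to 0.0276%. Chondrocyte markers were abundant in sum and osteocyte markers nearly absent. Col2a1, the main collagen of cartilage, was at 951 to 1662 FPKM (fragments normalized to gene length and library size). Matn1, the lowest of the 10 chondrocyte markers, was at 2.36 to 4.37 FPKM. Phex, the only one of 4 measured osteocyte markers to pass the count filter, stayed at 0.0820 FPKM or less. Summed over 8 macrophage and leukocyte markers, CPM (counts scaled to the nuclear total of the library) were 112 to 135 in mAC and 115 to 190 in mAC_Mito. For 7 adipocyte markers the sums were 242 to 362 and 291 to 410, for 10 skeletal muscle markers 81.4 to 108 and 93.9 to 119, and for 6 endothelial markers 2.04 to 2.56 and 1.70 to 2.995. For the 10 chondrocyte markers they were 17730 to 20185 and 17173 to 25351. No marker of these lists was at 0 in every library, and the groups overlapped in each sum. Of the single markers, 10 of 10 for muscle, 7 of 7 for adipocytes, 7 of 8 for macrophages and leukocytes and 4 of 5 tested for endothelium had a log2 fold change above 0, with medians of 0.22, 0.16, 0.34 and 0.21. So had 7 of 10 chondrocyte markers (median 0.05) and 8891 of all 17645 genes tested. Without mAC 1 the counts were 6 of 10 for muscle, 5 of 7 for adipocytes, 6 of 8 for macrophages and leukocytes and 4 of 5 for endothelium. For endothelium the count was 3 of 5 without mAC 2 or mAC 3, 2 of 5 without mAC_Mito 1 or mAC_Mito 2, and 4 of 5 without mAC_Mito 3. In the same fits it was 8 to 10 for muscle, 5 to 7 for adipocytes and 6 to 7 for macrophages and leukocytes. With all 6 libraries no marker passed in edgeR. Of all genes tested, 3.2% had an unadjusted p under 0.05, and 8.31% did not overlap between the groups on TMM-scaled CPM. Of the markers, 2 had such a p, without overlap of the groups in FPKM. These were Myh8, a muscle myosin, at 0.320 to 0.373 FPKM in mAC against 0.484 to 0.520 in mAC_Mito, and Itgam, a macrophage integrin, at 0.142 to 0.234 against 0.247 to 0.423. Their part in the values of the factors was not tested. In RNA of whole cultures, fewer cells of a type and less RNA per cell cannot be told apart.

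The start-site sequences are shown because GABP and NRF1 are the regulators most often named for these genes. RefSeq start-site windows of 300 bases (250 before to 50 after the start, GRCm38.p6) were found for all 10 genes, with 2 windows for Twnk. The core of the ETS motif, CCGGAAG, searched on both strands, lay in windows of 6 of the 10 genes and in 8.86% of 32817 windows of all genes. The 30 bases around the match nearest to the start are shown on the strand of each gene, with the motif in capitals (CTTCCGG where it lies on the other strand).
Tfam, chr10:71238073-71238102, minus strand: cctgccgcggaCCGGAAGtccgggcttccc
Polg, chr7:79466293-79466322, minus strand: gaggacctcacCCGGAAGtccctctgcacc
Polg2, chr11:106779548-106779577, minus strand: cgggtgacgctCTTCCGGgggcgtggtcta
Twnk, chr19:45006481-45006510, plus strand: ggagagttttgCTTCCGGagtcaccgcgag
Polrmt, chr10:79746606-79746635, minus strand: ccctaagagcgCTTCCGGcagtcgcagaac
Ssbp1, chr6:40471410-40471439, plus strand: ggctccgtgcgCCGGAAGcgagccgctggc
The match begins 47 bases before the start in Tfam and Ssbp1, 43 in Polrmt, 38 in Polg, 29 in Polg2 and 66 in the downstream window of Twnk. The stretches of Tfam, Polg and Ssbp1 overlap exons of these genes in GENCODE M21, whose models begin further upstream than the RefSeq start used here. The stretch of Twnk lies inside its gene but in no exon, and those of Polg2 and Polrmt lie outside the gene.

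The palindromic NRF1 motif, searched on both strands, occurred in 4.59% of all windows and among the factors in that of Polrmt alone. There, 2 overlapping matches on the opposite strand lie at the start itself, and capitals mark each match.
Polrmt, chr10:79746568-79746597, minus strand: cctgcaggcgGCGCGTGCGCgtgcgcactg
Polrmt, chr10:79746562-79746591, minus strand: ggcggcgcgtGCGCGTGCGCactgcgggca
The GC box GGGCGG lay in windows of 7 factors (Tfam, Polg, Twnk, Tfb1m, Tfb2m, Ssbp1 and Lrpprc), against 35.6% of all windows. Mgme1 held none of these 3 motifs in its window. These are matches of letters, not measured binding.

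Among the factors of packaging and transcription were the highest and the second highest of the set by FPKM, Tfb2m and Tfam. Tfb2m, the initiation factor that melts the promoter, was at 9.47, 9.83 and 10.0 FPKM in mAC 1, 2 and 3 and at 9.89, 9.72 and 9.31 FPKM in mAC_Mito 1, 2 and 3. It had the highest FPKM and the least spread of all 10, with a ratio of 1.07 between the highest and the lowest library, and its groups overlapped. Tfam was second by FPKM, with 5.46, 6.96 and 9.09 FPKM in mAC against 6.13, 7.69 and 6.56 FPKM in mAC_Mito. Its lowest library and its highest, mAC 1 and mAC 3, belong to the same group and enclose every mAC_Mito library.

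Polrmt, the mitochondrial RNA polymerase, was at 3.15, 3.75 and 3.27 FPKM in mAC against 3.55, 4.10 and 3.99 FPKM in mAC_Mito. Only mAC_Mito 1 lay below the highest mAC library, so the groups overlapped by 1 library. Tfb1m, a paralogue of Tfb2m that methylates the RNA of the small mitochondrial ribosomal subunit, was at 2.96, 3.16 and 2.91 FPKM in mAC against 2.89, 2.72 and 2.90 FPKM in mAC_Mito. It was the only factor whose groups did not overlap in FPKM, by a margin in the third digit, and on TMM-scaled CPM, where 8.31% of all genes tested did not overlap (3.93% higher and 4.38% lower in mAC_Mito), 0 of the 10 were separated. Tfb2m exceeded Tfb1m per length by 3.11 to 3.58 times in every library.

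**Figure D1:**
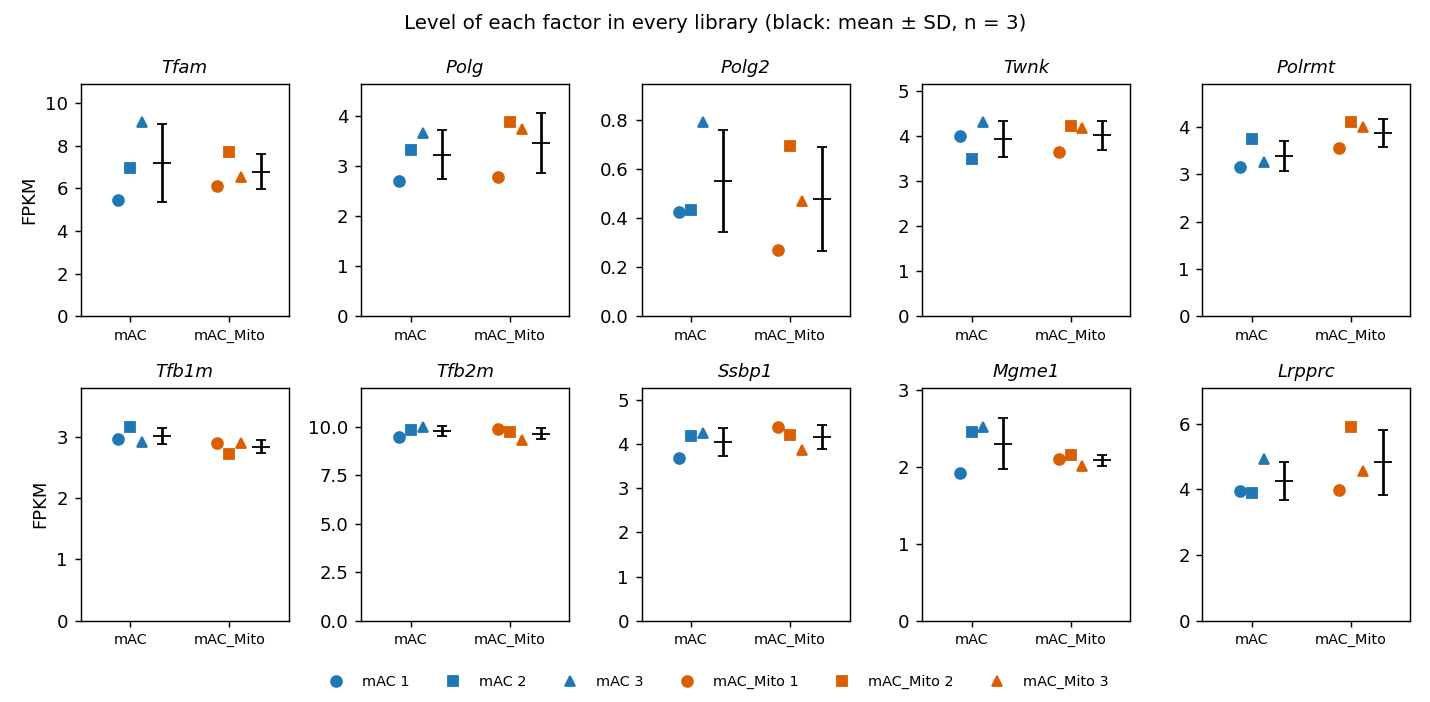
FPKM of each of the 10 factors (vertical axes, each from 0) in the 3 mAC and 3 mAC_Mito libraries, with the symbol giving the replicate and black bars the mean ± SD (n = 3). Tfb2m varies least, between 9.31 and 10.0 FPKM, and Polg2 most, between 0.273 and 0.791 FPKM.

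By FPKM the replication factors ranged from Ssbp1, just below Lrpprc, to Polg2, the lowest. Polg, the catalytic subunit of the mitochondrial DNA polymerase, was at 2.71, 3.32 and 3.67 FPKM in mAC against 2.79, 3.88 and 3.75 FPKM in mAC_Mito, so replicate 1 was lowest in both groups. Polg2, the subunit that keeps POLG on its template, was at 0.428, 0.433 and 0.791 FPKM in mAC against 0.273, 0.696 and 0.469 FPKM in mAC_Mito. It was the least abundant factor, with 93 to 249 counts per library, and its highest library exceeded its lowest by 2.90 times. The ratio of Polg to Polg2 ran from 4.63 in mAC 3 to 10.2 in mAC_Mito 1.

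Twnk, the helicase that opens the fork, was at 4.01, 3.50 and 4.31 FPKM in mAC against 3.66, 4.23 and 4.18 FPKM in mAC_Mito, and both groups covered nearly the same range. Ssbp1, which coats the displaced single strand, was at 3.68, 4.20 and 4.25 FPKM in mAC against 4.40, 4.21 and 3.87 FPKM in mAC_Mito. Mgme1, an exonuclease that trims the ends left by replication, was at 1.92, 2.45 and 2.52 FPKM in mAC against 2.10, 2.15 and 2.01 FPKM in mAC_Mito. The 3 mAC_Mito values of Mgme1 lay close together, inside the wider mAC range. Lrpprc was at 3.96, 3.90 and 4.94 FPKM in mAC against 3.99, 5.92 and 4.56 FPKM in mAC_Mito, with mAC_Mito 2 above all others.

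By mean FPKM over the 6 libraries the order was Tfb2m, Tfam, Lrpprc, Ssbp1, Twnk, Polrmt, Polg, Tfb1m, Mgme1 and Polg2. In FPKM, Tfb2m stood above all others in every library, and Polg2 below. Between neighbours, the ranges of Lrpprc, Ssbp1, Twnk and Polrmt overlapped, as did those of Polrmt, Polg and Tfb1m. Within a library, Lrpprc exceeded Ssbp1 in 4 of 6 libraries, Ssbp1 exceeded Twnk in 2, Twnk exceeded Polrmt in 5, Polrmt exceeded Polg in 5 and Polg exceeded Tfb1m in 4, while Lrpprc exceeded Polrmt in all 6. The length behind an FPKM value, taken from count and FPKM, was 9.61 kb for Ssbp1, 12.4 kb for Polg and 3.22 kb for Tfb2m, against 8.36, 10.7 and 2.80 kb of annotated exon sequence. The exact denominator is not stated, and the order of levels depends on the length model. As CPM of nuclear counts, which are not divided by length, Tfb2m was at 31.1 to 35.0. In every library this was below Ssbp1 (38.5 to 46.5), Polg (37.8 to 48.6) and Lrpprc (40.1 to 58.7).

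No factor passed the test between the groups. At an adjusted p of 0.05 in edgeR's quasi-likelihood test, 0 of 10 factors passed, against 0.0113% of all genes tested, and 0 of 10 had an unadjusted p under 0.05, against 3.2% of all genes; DESeq2 and limma on log2(FPKM + 1) also called 0. The log2 fold changes were 0.17 for Polrmt (standard error 0.11), 0.15 for Lrpprc (0.14), 0.08 for Polg (0.13), 0.02 for Ssbp1 (0.10) and 0.01 for Twnk (0.12). Those of the other 5 lay below 0, at -0.04 for Tfb2m (0.10), -0.09 for Tfam (0.15), -0.10 for Tfb1m (0.12), -0.15 for Mgme1 (0.14) and -0.22 for Polg2 (0.34). These small estimates moved with single libraries: that of Lrpprc was 0.007 without mAC_Mito 2 and 0.24 without mAC_Mito 1, that of Polg 0.011 without mAC 1 and 0.18 without mAC_Mito 1, and that of Tfb2m -0.0030 without mAC_Mito 3 and -0.097 without mAC_Mito 1. The Benjamini-Hochberg adjusted p from edgeR was 0.99991 for each. The median over the factors was -0.01, beside 0.00163 over all genes tested.

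The 95% intervals give the differences these libraries leave possible. For 9 factors the interval of the group ratio stayed between 0.726 and 1.38 times, the outer bounds being those of Mgme1 and Lrpprc. For Polg2 it ran from 0.505 to 1.45 times, at the lowest counts of the set. Whether replicates were separate cultures or animals is not stated, so intervals and p-values measure only the spread between these libraries, which may be technical.

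**Figure D2:**
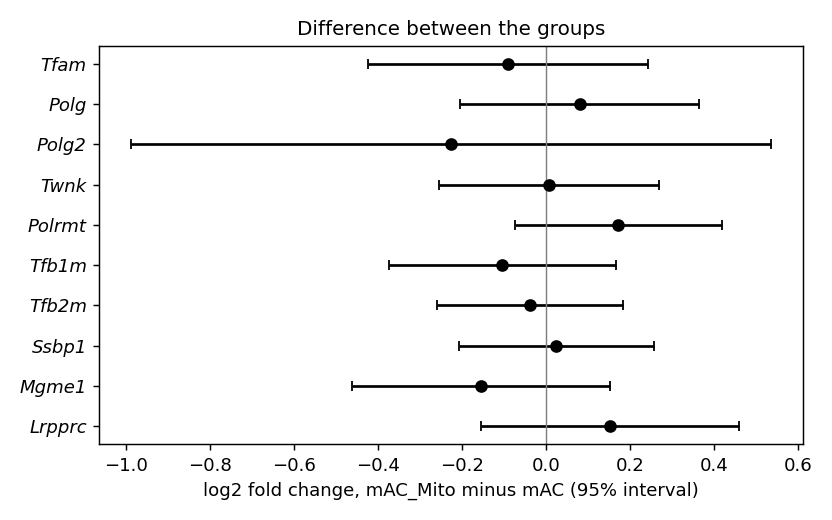
Log2 fold change of the 10 factors, mAC_Mito minus mAC (horizontal axis), with points at the edgeR estimate and bars for the 95% interval over 3 libraries a group. Every interval includes 0, and that of Polg2, from -0.99 to 0.54, is the widest.

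The summed share of the mitochondrial mRNAs had a wider range between libraries than every factor except Polg2, and so did 11 of the 13 mRNAs singly, the exceptions being mt-Nd3 (1.31 times) and mt-Co3 (1.56 times) beside 1.67 times for Tfam. The 13 mRNAs of the mitochondrial genome made up 7.31%, 4.71% and 3.13% of all counts in the mAC libraries 1 to 3, and 5.60%, 2.91% and 3.40% in the mAC_Mito libraries 1 to 3, a ratio of 2.51 between the highest and the lowest library. The group means were 5.05% ± 2.11 in mAC and 3.97% ± 1.43 in mAC_Mito (SD, n = 3), and no difference was detected (two-sided exact permutation p = 0.6, where 3 against 3 cannot go below 0.1). mt-Co1, which encodes the catalytic core of cytochrome oxidase, reached 12397 FPKM in mAC 1, the library with the highest share, against 6119 FPKM in mAC_Mito 2, that with the lowest. mt-Nd6, the only mRNA of the light strand, kept to 2.02% to 2.50% of mitochondrial mRNA counts in all 6 libraries.

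Set against this level, the amount of each factor per mitochondrial mRNA varied with the scale itself. The summed FPKM of mitochondrial mRNA ran from 26647.5 in mAC_Mito 2 to 65815.3 in mAC 1, so a gene of steady FPKM would vary too. Per 10000 FPKM of summed mitochondrial mRNA, Tfam was at 0.829, 1.65 and 3.25 FPKM in mAC against 1.25, 2.89 and 2.10 FPKM in mAC_Mito. Polrmt was at 0.478, 0.888 and 1.17 in mAC and 0.726, 1.54 and 1.28 in mAC_Mito on the same scale. Over the 10 factors the highest library exceeded the lowest by 2.31 to 5.07 times. Replicate 1, which had the most mitochondrial mRNA of its group, held the lowest value of its group for each. Between the groups no difference in this ratio was detected: with mitochondrial mRNA counts as the scale, 0 of 10 factors passed in edgeR (background 0.0398% of 17609 nuclear genes), and 0 of 10 had an unadjusted p under 0.05, against 0.755% of genes. The log2 differences ran from 0.06 for Polg2 to 0.48 for Polrmt with standard errors of 0.54 to 0.56, and their median of 0.26 stood beside 0.28 for all nuclear genes. The median of the factors was -0.013 without mAC 1, 0.052 without mAC_Mito 2, 0.46 without mAC_Mito 1 and 0.74 without mAC 3.

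The factors were then compared with the mitochondrial mRNA level across all 6 libraries, regardless of group. No factor passed, 0 of 10 against 5.5% of all nuclear genes. Polg, Tfam, Lrpprc and Polg2 had the lowest slopes, with an unadjusted p under 0.05 in edgeR, as had 21.3% of all genes. For this comparison the genes of the mitochondrial chromosome were kept out of the library size, so that their share could not lower every nuclear gene by arithmetic. Levels are CPM of nuclear counts. These still include the nuclear copies of mitochondrial genes, which took 0.829% (mAC_Mito 2) to 1.94% (mAC 1) of all counts. Polg was at 38.0, 43.1 and 46.0 CPM in mAC and 37.8, 48.6 and 47.9 CPM in mAC_Mito. Its 3 highest libraries are the 3 with the least mitochondrial mRNA. The slope was -0.28 ± 0.08 on the log2 scale per doubling of mitochondrial mRNA (standard error; edgeR adjusted p = 0.0759).

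Tfam was at 31.5, 37.3 and 47.0 CPM in mAC and 34.4, 39.8 and 34.6 CPM in mAC_Mito. The slope of Tfam was -0.28 ± 0.11 (standard error; edgeR adjusted p = 0.161). Lrpprc was at 43.9, 40.1 and 49.0 CPM in mAC and 42.9, 58.7 and 46.2 CPM in mAC_Mito, a slope of -0.25 ± 0.10 (standard error; edgeR adjusted p = 0.205). For Lrpprc too, the 3 libraries with the least mitochondrial mRNA were the 3 highest. Polg2 was at 2.50, 2.34 and 4.09 CPM in mAC and 1.57, 3.60 and 2.50 CPM in mAC_Mito, a slope of -0.59 ± 0.26 (standard error; edgeR adjusted p = 0.231).

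**Figure D3:**
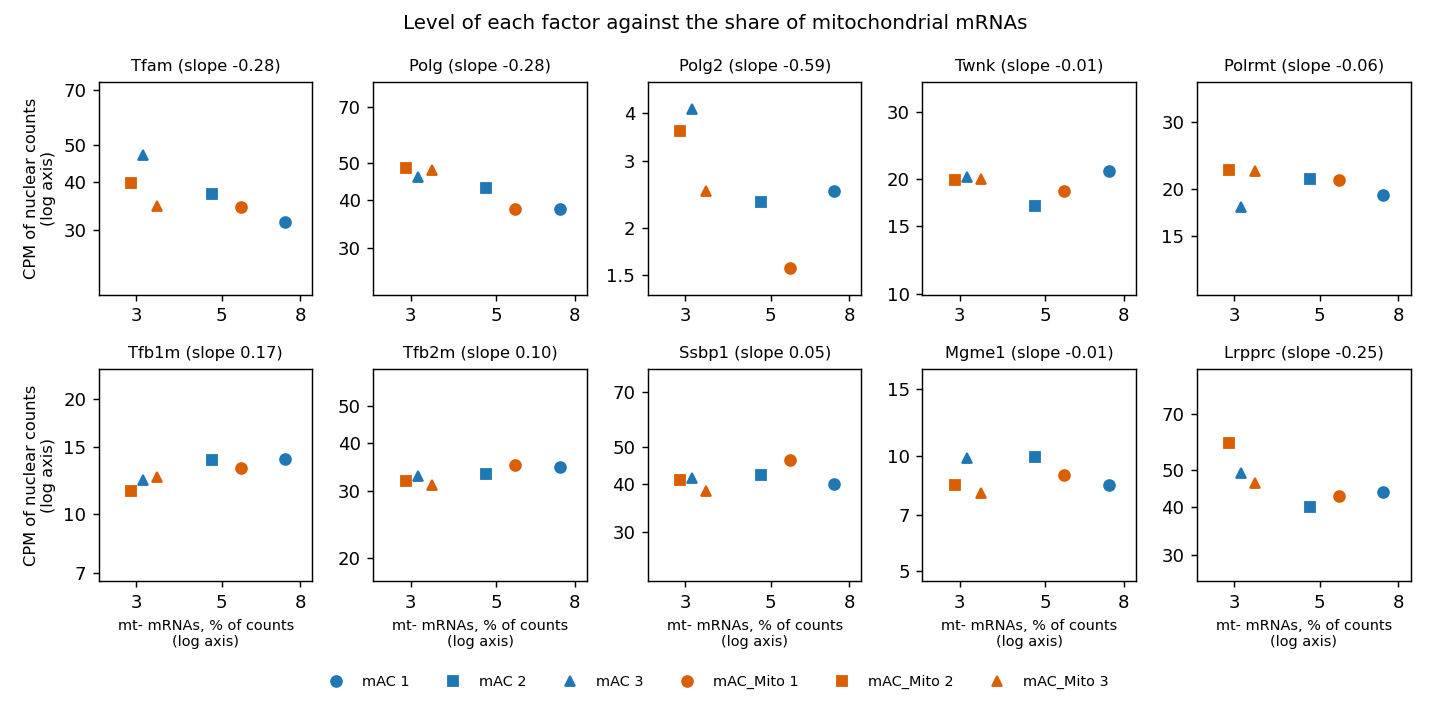
Level of each factor as CPM of nuclear counts (vertical log axes) against the share of counts from the 13 mitochondrial mRNAs (horizontal log axis, percent) in the 6 libraries, coloured by group, with the edgeR slope in each title. Polg, Tfam, Lrpprc and Polg2 each have their highest library among the 3 at the left, and the slopes of Twnk, Mgme1 and Ssbp1 lie between -0.01 and 0.05.

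The other 6 factors had slopes nearer to 0. Those of Twnk (-0.01, standard error 0.10), Mgme1 (-0.01, 0.13), Polrmt (-0.06, 0.11) and Ssbp1 (0.05, 0.09) were smaller than their errors. The paralogues Tfb2m and Tfb1m had slopes of 0.10 (0.08) and 0.17 (0.10), above 0. The estimates for both polymerase subunits, Polg and Polg2, lay below 0, and that for the helicase Twnk near 0.

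These slopes were read against those of all genes. Of 17609 nuclear genes, 969 (5.5%) passed an adjusted p of 0.05 for the slope in edgeR, 459 above and 510 below 0, and 0 of the 10 factors were among them. At an unadjusted p under 0.05 there were 4 of 10 factors, all below 0, and this count was 2 without mAC 2, mAC 3, mAC_Mito 1 or mAC_Mito 2, 3 without mAC 1 and 4 without mAC_Mito 3. With 2 of 10 the share is near 21.3%, which is the background of the fit with all 6 libraries and not of these fits. Of all slopes 52% lay below 0, and of those of the factors 7 of 10. The slope of Polg2 was at percentile 6.05 of all genes, those of Tfam, Polg and Lrpprc at percentiles 17.6, 18.1 and 20.1. The count of 969 was 113 without mAC 1, 290 without mAC_Mito 2, 398 without mAC_Mito 1, 521 without mAC 3 and 589 without mAC 2, and 385 without the filter on low counts; no factor passed in any of these fits. The 6 nuclear copies of mitochondrial genes in the table had slopes of 0.35 (Gm28438), 0.59 (Gm28437), 0.67 (Gm29216), 1.02 (Gm28661), 1.09 (Gm10925) and 1.31 (Gm28439), all past the threshold. Reads of such copies and of the mitochondrial mRNAs may not be told apart, so these slopes do not check the fit for other genes.

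Other measures moved with the mitochondrial mRNA level. The first principal component of all genes held 27.5% of the variance. Genes of the mitochondrial chromosome were kept in it, so the mitochondrial mRNAs are part of both measures. The 6 libraries had the same order by mitochondrial mRNA as on this component (Pearson r = -0.995, exact permutation p = 0.0014; Spearman rho = -1, exact permutation p = 0.0028; r = -0.987 without mAC 1 and mAC_Mito 1, the libraries farthest from the median). The slopes therefore cannot be told apart from the main axis of variation between the libraries. Of the 10 chondrocyte markers 3 passed, Col9a2 (-0.33, edgeR adjusted p = 0.0182) and Comp (-0.28, 0.0490) below 0 and Hapln1 (0.27, 0.0325) above 0, and 8 of 10 estimates lay below 0 (median -0.24). So did 6 of 8 for macrophages and leukocytes (-0.23), 5 of 7 for adipocytes (-0.19), 7 of 10 for muscle (-0.05) and 3 of 5 for endothelium (-0.24), with 0 passing in these lists. Their part in the slopes of the factors was not tested. By length of the gene model the median slope was -0.01, 0.00406, -0.00682 and -0.03 in 4 classes of equal size from the shortest to the longest genes. The share of genes passing in edgeR fell over these classes, at 8.20%, 6.45%, 4.73% and 2.63%. The share with an unadjusted p under 0.05 was 23.8%, 22.9%, 21.4% and 17.3%. Polg, Lrpprc and Ssbp1 lie in the longest class, above 7.12 kb.

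As plain correlations over the 6 libraries, the level of Polg gave Pearson r = -0.946 (exact permutation p = 0.0083, adjusted over 17609 genes 0.141) and Spearman rho = -0.886 (p = 0.0333, adjusted 0.248). Tfam gave r = -0.752 (exact permutation p = 0.0722, adjusted 0.310) and rho = -0.886 (p = 0.0333, adjusted 0.248), Lrpprc r = -0.701 (p = 0.110, adjusted 0.372) and rho = -0.771 (p = 0.103, adjusted 0.397), and Polg2 r = -0.678 (p = 0.142, adjusted 0.418) and rho = -0.600 (p = 0.242, adjusted 0.568). Without mAC 1 and mAC_Mito 1, r was -0.886 for Polg, -0.411 for Tfam, -0.910 for Lrpprc and -0.780 for Polg2. In edgeR fits without 1 library, the slope of Tfam was -0.27 without mAC 1, -0.28 without mAC_Mito 1 and -0.18 without mAC 3. That of Lrpprc was -0.12 without mAC_Mito 2. For Twnk, r was -0.074 (exact permutation p = 0.871, adjusted 0.946) over 6 libraries and -0.943 without mAC 1 and mAC_Mito 1, and for Tfb2m it went from 0.850 to 0.584. On the positive side stood Tfb1m (r = 0.887, exact permutation p = 0.0278, adjusted 0.213; rho = 0.943, p = 0.0167, adjusted 0.203) and Tfb2m (r = 0.850, p = 0.0444, adjusted 0.252; rho = 0.771, p = 0.103, adjusted 0.397). The nuclear genes most like Tfam over the 6 libraries, among 6578 with a mean of at least 5 FPKM, were Nsmce1 (r = 0.998), Pigk (0.997) and Map2k1 (0.995), and 422 genes had an r above 0.9.

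**Figure D4:**
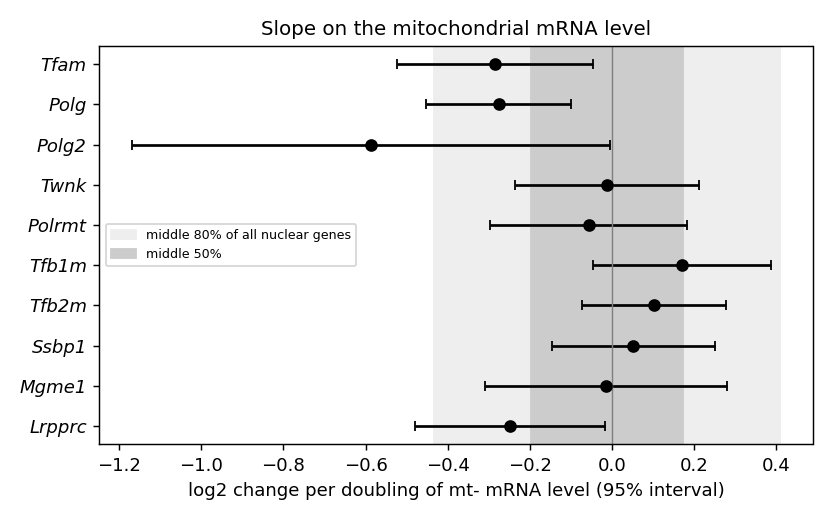
Slope of each factor on the mitochondrial mRNA level (horizontal axis, log2 change per doubling) with its 95% interval over 6 libraries, and grey bands for the middle 50% and 80% of all 17609 nuclear genes. Tfam, Polg and Lrpprc lie left of the inner band, from -0.20 to 0.17, and Polg2 at -0.59 lies left of the outer one.

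The motif is given beside the slopes as a description. Of the 4 factors with the lowest slopes, Tfam, Polg and Polg2 held CCGGAAG and Lrpprc did not, and of the other 6, Twnk, Polrmt and Ssbp1 held it. No relation between motif and slope was tested. Gabpa, the DNA-binding subunit of GABP, was at 76.4, 67.8 and 63.8 CPM in mAC and 72.0, 64.8 and 63.4 CPM in mAC_Mito. Its slope was 0.19 ± 0.07 (standard error; edgeR adjusted p = 0.153).

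Other genes of the pathway were taken from 5 lists with 88 genes, all of which were tested. None of the 88 passed between the groups in edgeR. An unadjusted p under 0.05 was found for 3.2% of all genes tested and for 2 of the 88. These were Dna2, a nuclease and helicase of replication, at 0.889 ± 0.0974 FPKM in mAC against 0.640 ± 0.130 in mAC_Mito, and Rrm1, the large subunit of ribonucleotide reductase, at 21.6 ± 0.601 and 18.3 ± 0.809 FPKM (SD, n = 3). The log2 fold changes were -0.49 and -0.26, with an edgeR adjusted p of 0.99991 for both. In the replication, repair and nucleoid list 7 of 20 genes lay above 0 (median -0.04), and in the nucleotide supply list 7 of 16 (median -0.04). Of the elongation and termination genes 2 of 8 lay above 0 (median -0.09), of the RNA processing and decay genes 15 of 31 (median -0.01) and of the nuclear regulators 7 of 13 (median 0.01), beside 0.00163 for all genes.

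Named by the same rule for each list, the genes below did not pass between the groups. Apex1, a DNA repair endonuclease, was at 36.7 ± 8.29 FPKM in mAC against 34.5 ± 2.81 in mAC_Mito, and Mpv17, a membrane protein needed to keep mitochondrial DNA, at 10.6 ± 0.810 and 9.22 ± 1.03. The pyrimidine nucleotide carrier Slc25a36 was at 6.10 ± 0.734 and 5.47 ± 0.359 FPKM. Mrpl12, a ribosomal protein that also binds POLRMT, was at 33.5 ± 3.35 and 31.5 ± 2.98 FPKM, and Mterf3, a repressor of mitochondrial transcription, at 4.19 ± 0.262 and 3.91 ± 0.225. Rexo2, which degrades short RNAs in mitochondria, was at 52.2 ± 4.21 and 48.7 ± 3.40 FPKM, Pnpt1, the mitochondrial polynucleotide phosphorylase, at 9.84 ± 0.0880 and 8.89 ± 0.536, and Fastkd2, an RNA-binding protein of mitochondrial ribosome assembly, at 3.07 ± 0.308 and 2.67 ± 0.112. Among the regulators, Myc was at 18.3 ± 4.46 and 17.8 ± 2.36 FPKM and Hcfc1 at 8.97 ± 1.66 and 11.3 ± 2.46, while the coactivator Ppargc1b had at most 34 counts in a library.

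With the mitochondrial mRNA level, 9 of the 88 genes (10.2%) passed the slope test in edgeR, beside 5.5% of all genes, 4 above and 5 below 0. Both shares are those of the fit with all 6 libraries, and for the lists no other slope fit was read. Over all genes the count fell from 969 to 113 without mAC 1 and to 290 without mAC_Mito 2. The 9 genes are named after their values were seen. Slirp, the partner of LRPPRC, was at 24.7, 34.6 and 43.7 CPM in mAC and 30.6, 40.5 and 34.2 CPM in mAC_Mito, a slope of -0.49 ± 0.10 (standard error; edgeR adjusted p = 0.0209). Slirp and Lrpprc thus had slopes of the same sign, and that of Slirp alone passed. Lonp1, the matrix protease that degrades TFAM, had a slope of -0.27 (edgeR adjusted p = 0.0461), close to that of Tfam. The RNA methyltransferases Mrm1 and Nsun4 and the nuclear receptor Esrra also passed below 0, with slopes of -0.49, -0.37 and -0.48. Fastk, an RNA-binding protein needed for mt-Nd6, passed above 0 (0.49), as did Mpv17 (0.37), Rexo2 (0.30) and Myc (0.47).

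**Figure D5:**
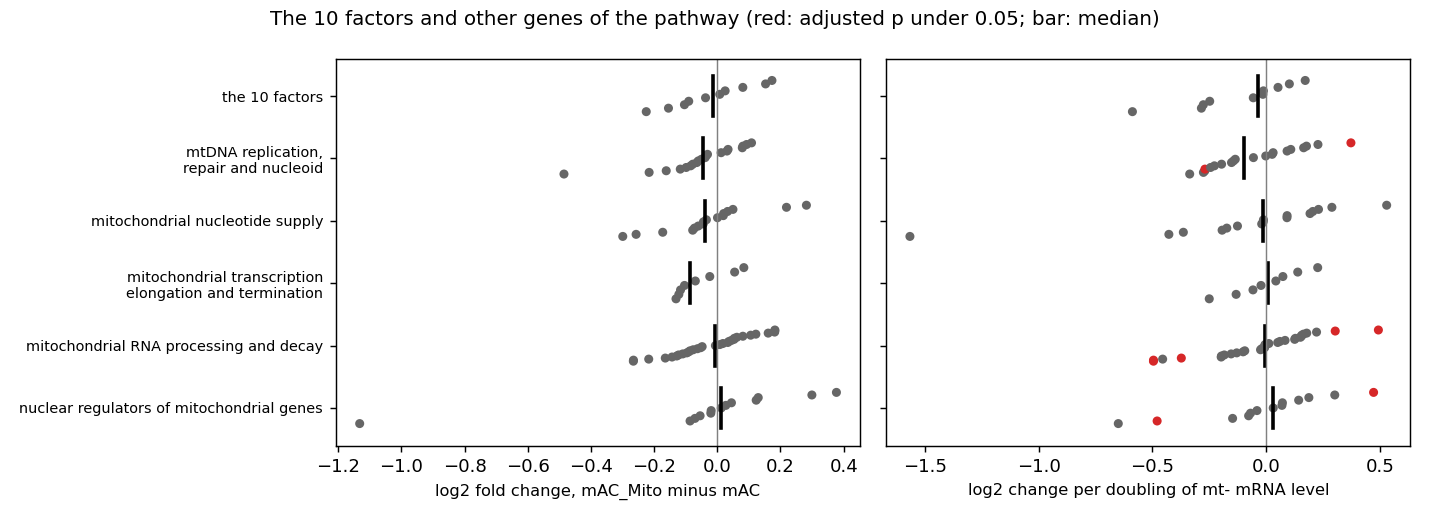
Log2 fold change between the groups (left) and slope on the mitochondrial mRNA level (right) for the 10 factors and for the genes of 5 further lists, with 1 point a gene, black bars at the median and red points for an edgeR adjusted p under 0.05. No point is red on the left, and 9 points of the lists and none of the 10 factors are red on the right.

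Some of these counts rest on shared positions. Twnk shares 780 bases with Mrpl43 on the other strand (1598 to 2696 counts), Polg 4034 bases with Fanci (883 to 1315 counts), Mgme1 244 bases with Snx5 (12536 to 15317 counts) and Tfb1m 142 bases with Tiam2 (2963 to 3551 counts) and 660 with Cldn20 (2 to 25 counts). Polg2 shares 542 bases with Milr1 (10 to 40 counts) and Lrpprc 3831 bases with Gm49979 (0 to 4 counts), again on opposite strands. Whether counting used strand is not stated, so reads from these overlaps cannot be assigned with certainty. Tfam, Polrmt, Tfb2m and Ssbp1 overlap no other gene of the table. On GRCm38, Tfam (ENSMUSG00000003923) lies on chromosome 10 at 71225464 to 71238280, Polg (ENSMUSG00000039176) on chromosome 7 at 79446231 to 79466362, Polg2 (ENSMUSG00000020718) on chromosome 11 at 106768253 to 106779537 and Lrpprc (ENSMUSG00000024120) on chromosome 17 at 84705247 to 84790562. Twnk lies on chromosome 19 at 45005663 to 45012762, Polrmt on chromosome 10 at 79736123 to 79746581, Tfb1m on chromosome 17 at 3519256 to 3557781, Tfb2m on chromosome 1 at 179528055 to 179546267, Ssbp1 on chromosome 6 at 40471352 to 40484700 and Mgme1 on chromosome 2 at 144270663 to 144281227.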

How the data were processed

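The authors deposited 1 table with a raw read count per gene and library and an FPKM value for each, per the file headers. Without giving their roles, the submitters' processing notes list mm8, Bowtie 0.12.2, StringTie 1.3.0 and HISAT2 2.0. The coordinates are those of GRCm38: 24147 of 26902 gene identifiers shared with GENCODE M21 have the same start and end, 9 of the 10 factors among them, and Lrpprc shares its start. In R 4.3.3, edgeR 4.0.16 was run on the counts (quasi-likelihood test, filterByExpr with minimum count 10 and minimum total 15, TMM, two-sided, Benjamini-Hochberg over all genes tested, threshold 0.05). Standard errors and 95% intervals are those implied by the F statistic. The slope fit used log2 of the 13 mitochondrial mRNAs over all nuclear counts, and the fit per mitochondrial mRNA used their counts as library size. limma 3.58.1 and DESeq2 1.42.0 were alternatives, and the scripts were tested on simulated data. Members, lists and tests were chosen with earlier results of these data known. Within each list the most abundant gene and the 2 with the smallest unadjusted p were named, with mt-Co1 and mt-Nd6 for the mitochondrial mRNAs and the 3 genes most correlated with Tfam. A gene that this rule names is not reported here. Start-site sequences are RefSeq's, GRCm38.p6.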

Additional observations from a re-analysis of the deposited data

How the results depend on the processing

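No factor passed in any alternative of the 3 comparisons, and 0 of the 88 pathway genes passed between the groups in any. Of 120 alternative log2 fold changes 113 kept their sign, and of 100 alternative slopes 91. Without mAC 3 the fold changes of Tfam and Polg2 turned to 0.076 and 0.078, without mAC_Mito 1 those of Polg2 and Ssbp1 to 0.028 and -0.059, and that of Twnk turned to -0.084 without mAC 2, -0.0063 without mAC_Mito 2 and -0.01 without mAC_Mito 3. The slope of Twnk turned to 0.017 without mAC 2, 0.01 without mAC 3, 0.0095 without mAC_Mito 1 and 0.0038 without mAC_Mito 2, that of Polrmt to 0.032 without mAC 1 and 0.0069 with group as a further term, that of Ssbp1 to -0.0019 without mAC_Mito 1, and that of Mgme1 to 0.10 without mAC 1 and 0.06 without mAC 3. With 1 library left out, the fold changes ran from -0.21 to 0.076 for Tfam, -0.56 to 0.078 for Polg2, -0.084 to 0.070 for Twnk and -0.059 to 0.083 for Ssbp1, and the slopes from -0.18 to 0.017 for Twnk, -0.15 to 0.032 for Polrmt, -0.0019 to 0.19 for Ssbp1 and -0.069 to 0.097 for Mgme1. The cause was not tested. The slopes of Tfam, Polg, Polg2 and Lrpprc stayed below 0 in all 10 alternatives, from -0.34 to -0.18, -0.32 to -0.25, -1.19 to -0.43 and -0.40 to -0.12, with edgeR adjusted p-values, the main ones included, from 0.0928 to 0.461, 0.0759 to 0.208, 0.118 to 0.440 and 0.191 to 0.612. The log2 difference of the mitochondrial mRNA share was -0.32, and -0.62 to -0.0099 with 1 library left out.

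Deviations of same-numbered libraries correlated by 0.124, -0.060 and -0.012 for numbers 1, 2 and 3. Those of libraries with unlike numbers correlated by -0.140 to 0.154. With 3 libraries a group, these values cannot decide whether the numbers pair the libraries. With a replicate block, edgeR called 0 factors between the groups, and 0 per mitochondrial mRNA, where it called 15 of all genes against 7 without the block. Polg2 had the fewest counts, 93 to 249, and its SD over the 6 libraries, 0.490 on the log2 scale, exceeded the median of 0.312 for genes of like level.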
